A study of Mus musculus with 4 samples.

Results

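Immediate early genes and the NR4A orphan nuclear receptors were followed through the cell classes of the wire-injured mouse carotid artery. The 10 genes were chosen by name, with no threshold on their values: *Fos*, *Fosb*, *Jun*, *Junb* and *Atf3* of the AP-1 and ATF families, *Egr1*, *Ier2*, and *Nr4a1*, *Nr4a2* and *Nr4a3*, out of 31053 genes listed in the files. The question was whether their levels were higher or lower together in every class of a library, as a shared step such as tissue digestion would produce. The series holds 4 single-cell libraries of carotid arteries from C57BL/6 mice that were 11 weeks old at surgery, per the study's methods all male: 1 taken before injury (day 0) and 1 each at day 3, day 7 and day 14 after a wire was passed through the vessel. Only the left carotid was injured, vessels with thrombosis were discarded, and each injury library pooled arteries of several mice, so that values of single animals are not seen. According to the labels every library was digested in the same way, for 1 h at 37 °C with collagenases, hyaluronidase and deoxyribonuclease, and dead cells were removed. With 1 library a day there is no replicate, so no comparison below carries a p-value, and injury day, mice, digestion and library cannot be told apart.

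Immediate early genes are transcribed within minutes of a stimulus, without new protein synthesis, from promoters that growth factor, stress and calcium signals reach through transcription factors already present in the cell. Fos and Jun proteins pair to form AP-1, Egr1 is a zinc finger factor, and the NR4A proteins are nuclear receptors that are controlled mainly through their own transcription. In the vessel wall these genes are known as early markers of mechanical injury, and they are also known to be switched on while tissue is dissociated into single cells.

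The promoters of these genes carry elements for signal-regulated factors, which is why 5 of them are printed here. The 250 bases before the annotated start were read from RefSeq (GRCm38.p6), where 8 of the 10 genes were matched (all but *Egr1* and *Ier2*). Capitals mark TGACG, the core of the cAMP response element, on either strand (CGTCA where it lies on the other). The windows are chr12:85473640-85473889 on the plus strand for *Fos*, chr7:19310046-19310295 on the minus strand for *Fosb*, chr1:191183334-191183583 on the minus strand for *Atf3*, chr15:101266596-101266845 on the plus strand for *Nr4a1* and chr4:48045055-48045304 on the plus strand for *Nr4a3*, each written 5′ to 3′ on the strand of its gene:
Fos: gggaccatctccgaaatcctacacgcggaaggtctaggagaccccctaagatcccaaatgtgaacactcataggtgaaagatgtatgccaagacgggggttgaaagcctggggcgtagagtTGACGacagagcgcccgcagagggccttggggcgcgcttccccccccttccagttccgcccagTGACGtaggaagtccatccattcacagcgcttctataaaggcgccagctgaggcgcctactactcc
Fosb: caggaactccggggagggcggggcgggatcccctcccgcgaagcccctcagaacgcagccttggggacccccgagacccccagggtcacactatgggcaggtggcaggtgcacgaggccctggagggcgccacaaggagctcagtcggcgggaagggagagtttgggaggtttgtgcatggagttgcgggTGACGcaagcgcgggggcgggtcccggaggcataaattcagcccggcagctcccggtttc
Atf3: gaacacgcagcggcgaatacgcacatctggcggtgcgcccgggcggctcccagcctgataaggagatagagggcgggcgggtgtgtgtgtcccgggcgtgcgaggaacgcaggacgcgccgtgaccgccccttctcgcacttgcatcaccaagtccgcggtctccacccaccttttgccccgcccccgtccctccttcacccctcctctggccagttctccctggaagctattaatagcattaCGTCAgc
Nr4a1: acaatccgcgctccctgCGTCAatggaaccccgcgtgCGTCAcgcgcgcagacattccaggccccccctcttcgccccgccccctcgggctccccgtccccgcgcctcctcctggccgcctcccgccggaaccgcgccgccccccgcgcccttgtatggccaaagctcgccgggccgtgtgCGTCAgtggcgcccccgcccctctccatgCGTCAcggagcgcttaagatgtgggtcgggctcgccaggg
Nr4a3: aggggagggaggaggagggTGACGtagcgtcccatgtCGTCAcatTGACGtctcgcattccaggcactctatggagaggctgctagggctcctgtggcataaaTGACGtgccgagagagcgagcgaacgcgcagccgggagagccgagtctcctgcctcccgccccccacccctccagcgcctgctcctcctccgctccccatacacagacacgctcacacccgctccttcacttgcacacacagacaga

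TGACG was found in 7 of the 8 windows, all but that of *Jun*, against 17.8% of 32851 windows of the same length before other gene starts. The windows of *Nr4a1*, *Nr4a2* and *Nr4a3* held 4 matches each and that of *Fos* 2. The longer TGACGT, which contains TGACG, was in the windows of *Fos*, *Atf3* and *Nr4a3* and in 6.47% of all windows. The full cAMP response element (1.55% of all windows), the AP-1 element TGACTCA (4.46%) and the CArG box that serum response factor binds (1.47%) were in none of the 8. A match is a description of the letters and not a binding site, and no match says only that these letters are not in this window.

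The deposited matrices held 6161 cell barcodes, of which 5406 were kept, 281, 1403, 2693 and 1029 for days 0, 3, 7 and 14. Median depth was 7959, 5458, 6347 and 10750 unique molecular identifiers (UMIs) per kept cell, and the median mitochondrial share lay between 2.50% and 4.05%. The libraries shared 217 barcodes, 152 of them between days 0 and 3 and 64 between days 7 and 14. In 214 pairs 1 copy was far shallower than the other, with a median of 0.915%, 4.66% or 1.12% of its UMIs according to the pair of libraries, and a median of 99.5% or 99.6% of its genes were also seen in the deeper copy. The shallower copies were removed. Keeping them took 7 of 21 ratios of the summed level outside their counting interval and turned none of the 21. Clusters were named from marker genes as resembling 9 classes, and 729 cells (13.5%) stayed unnamed. Every marker was highest in its own class except for 1 of 14 monocyte/macrophage markers and 2 of 12 dendritic markers. Day 0 entered for fibroblast-like and T cell-like cells only, as the other classes held at most 11 cells there. Neutrophil-like cells entered at days 3 and 7 and B cell-like cells at day 14, which left 26 sums of a class in a library. The median mitochondrial share also differed by class and day. At days 3, 7 and 14 it was 5.27%, 4.34% and 2.67% in monocyte/macrophage-like and 2.89%, 3.89% and 2.35% in fibroblast-like cells. It was 5.96%, 9.74% and 5.87% in smooth muscle-like and 0.319%, 4.10% and 0.199% in endothelial-like cells. How it relates to the levels was not tested.

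The summed level of the 10 genes as counts per 1000000 UMIs (CPM) was higher at day 14 than at day 3 in each of the 7 classes measured at days 3, 7 and 14. In fibroblast-like cells it was 3172 CPM before injury (exact Poisson 95% interval 3098 to 3247), and 3278, 5281 and 8162 CPM at days 3, 7 and 14 (8103 to 8222 for the last). Monocyte/macrophage-like cells had 3930, 8497 and 13530 CPM at days 3, 7 and 14, and dendritic-like cells had 2546, 5017 and 10055 CPM. Both classes were thus higher at each later day. T cell-like cells had 1833 CPM before injury (1618 to 2069) and 3316, 3443 and 6884 CPM afterwards, and NK cell-like cells had 4265, 4697 and 7491 CPM at days 3, 7 and 14. In the lymphocyte classes most of the difference therefore lay between days 7 and 14. Smooth muscle-like cells departed from this order with 6360, 5266 and 7798 CPM, and their cells of up to 20000 UMIs, with 10948, 9307 and 7606 CPM, were lower at day 14 than at day 3. Neutrophil-like cells had the highest sums of any class on both of their days, 18324 and 18780 CPM, while B cell-like cells had 6438 CPM at day 14. All intervals cover counting error only, not differences between mice, digestions or libraries.

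**Figure D1:**
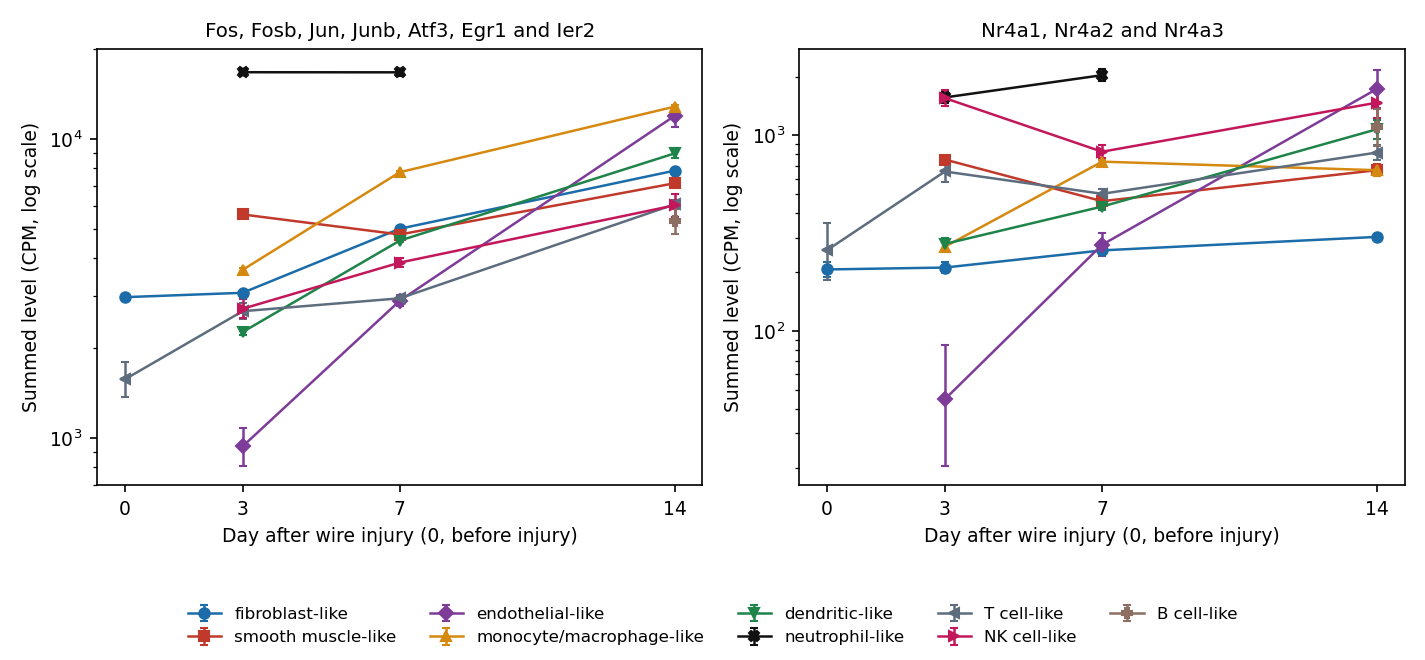
Summed level (CPM, log scale) against day for each class, with exact 95% counting intervals. The left panel sums *Fos*, *Fosb*, *Jun*, *Junb*, *Atf3*, *Egr1* and *Ier2*, and the right panel *Nr4a1*, *Nr4a2* and *Nr4a3*. In the left panel fibroblast-like cells have 2966 CPM before injury and 7859 CPM at day 14. Neutrophil-like cells lie highest there, at 16758 and 16745 CPM at days 3 and 7.

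The endothelial-like sums of 985, 3163 and 13730 CPM at days 3, 7 and 14 rest on few cells. At day 14 the class held 18 cells with 47852 UMIs, a single cell gave 42.3% of them and 11 cells had under 1000 UMIs. The 14 monocyte/macrophage markers summed to 169, 195 and 4786 CPM in this class over the same days, and at day 14 10 of the 14 had a UMI and *Mrc1*, *Ly6c2*, *Chil3* and *Ccr2* were at 0. Their part in the day 14 levels of this class was not tested.

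*Fos* and *Fosb*, the Fos-family partners of AP-1, were highest at day 14 in all 7 classes with 3 injury days. *Fos* was at 602, 555, 1039 and 2076 CPM in fibroblast-like cells at days 0, 3, 7 and 14, and at 147, 339, 331 and 920 CPM in T cell-like cells. At days 3, 7 and 14 it was at 1008, 1942 and 3104 CPM in monocyte/macrophage-like cells and at 1560, 1304 and 2557 CPM in smooth muscle-like cells. The neutrophil-like levels of 3219 and 3058 CPM exceeded those of every other class on the same days. *Fosb* was lower throughout, at 95, 156, 156 and 291 CPM in fibroblast-like cells, and among the classes at day 14 it was highest in dendritic-like cells (156, 272 and 848 CPM over the injury days). Smooth muscle-like cells had 467, 514 and 721 CPM of *Fosb*.

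*Jun*, the core AP-1 subunit, had the most regular course of the 10 genes. Fibroblast-like cells had 764, 787, 1401 and 2014 CPM at days 0, 3, 7 and 14. Monocyte/macrophage-like cells had 628, 1445 and 2192 CPM and dendritic-like cells 430, 1116 and 1630 CPM at days 3, 7 and 14. NK cell-like cells had 400, 1046 and 1817 CPM. The smallest span was in smooth muscle-like cells, with 763, 902 and 1152 CPM. In every class with 3 injury days the level at day 7 was above that at day 3 and the level at day 14 above both, although in smooth muscle-like cells day 14 was below day 7 without cells over 20000 UMIs and with each cell's CPM averaged. T cell-like cells were the exception before that, since their day 0 level of 385 CPM lay above the 252 CPM of day 3.

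*Junb*, an AP-1 subunit that lymphocytes and granulocytes express strongly, reached 5674 and 6002 CPM in neutrophil-like cells, the highest levels of any of the 10 genes in any sum. It made up 43.2% to 47.7% of the summed level in T cell-like cells, where it was at 875, 1432, 1538 and 3127 CPM at days 0, 3, 7 and 14. Fibroblast-like cells had 552, 534, 736 and 1303 CPM. Smooth muscle-like cells had 597, 369 and 597 CPM at days 3, 7 and 14. Day 14 was thus level with day 3 in this class, at a ratio of 1.00 (0.915 to 1.09). In every other class with 3 injury days *Junb* was highest at day 14.

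*Atf3*, a stress-induced ATF family member that represses many of its targets, differed widely between classes. T cell-like cells had 0 UMIs of it in 18 cells at day 0, which allows up to 21.0 CPM by a limit of 3 UMIs or 25.8 CPM by the exact 95% interval, and 10.51, 34.0 and 40.8 CPM later. Fibroblast-like cells had 29.7, 156, 183 and 258 CPM at days 0, 3, 7 and 14. Monocyte/macrophage-like cells had 322, 832 and 1766 CPM, and neutrophil-like cells 1349 and 2013 CPM. NK cell-like cells stayed low, at 33.4, 32.5 and 24.6 CPM, the last from 2 UMIs. The endothelial-like level was 59.7, 136 and 3135 CPM, with the limits on that class given above.

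*Egr1*, a zinc finger factor known for its part in the arterial response to injury, was most abundant in neutrophil-like cells at day 3, with 2579 CPM, and was at 1473 CPM there at day 7. Fibroblast-like cells had 609, 597, 1141 and 1554 CPM and smooth muscle-like cells 1455, 1226 and 1264 CPM. *Egr1* thus formed 18.2% to 21.6% of the summed level in fibroblast-like cells and 16.2% to 23.3% in smooth muscle-like cells. T cell-like cells had 21.0, 131, 109 and 187 CPM, the first from 3 UMIs, or 1.15% to 3.96% of their sum. *Ier2*, a small nuclear protein induced by growth factors, varied little in fibroblast-like cells, at 315, 283, 367 and 364 CPM. In T cell-like cells it was at 84.0, 384, 292 and 391 CPM, lowest at day 0, and in NK cell-like cells at 419, 468 and 798 CPM.

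The NR4A receptors were a small part of the sum in fibroblast-like cells, where the 3 genes together were at 206, 211, 258 and 303 CPM at days 0, 3, 7 and 14. NK cell-like cells had 1553, 826 and 1474 CPM of them at days 3, 7 and 14, and neutrophil-like cells 1565 and 2035 CPM. *Nr4a1* was the most abundant of them in fibroblast-like cells. It was at 152, 148, 170 and 207 CPM in fibroblast-like cells, at 91.0, 300, 231 and 527 CPM in T cell-like cells and at 111, 183 and 732 CPM in dendritic-like cells. *Nr4a2* followed another order of days. Monocyte/macrophage-like cells had 63.7, 205 and 94.8 CPM and dendritic-like cells 47.5, 113 and 69.8 CPM of it, highest at day 7 in both. NK cell-like cells had 567, 302 and 503 CPM. *Nr4a3* was at 10.2, 74.8 and 79.4 CPM in monocyte/macrophage-like cells and at 415, 148 and 319 CPM in NK cell-like cells. In fibroblast-like cells *Nr4a2* was at 16.0, 40.6, 57.3 and 59.9 CPM and *Nr4a3* at 38.8, 22.3, 31.2 and 36.4 CPM. Over all 70 pairs of a gene and a class with 3 injury days, 58 were highest at day 14, 3 at day 7 and 9 at day 3, beside 36% of 66406 pairs over all genes with at least 20 UMIs in the class. Without endothelial-like cells it was 48 of 60, beside 36.9% of 59692 pairs. Both counts are over cells of every depth. They were not repeated without cells over 20000 UMIs, which turns some smooth muscle-like and fibroblast-like pairs, as given below. *Nr4a2* was highest at day 14 in 3 of its 7 classes, near the 36% over all genes.

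Against the uninjured artery, the summed level of fibroblast-like cells differed little at day 3, while single genes differed both ways. *Atf3* was 5.24-fold higher (exact 95% interval 4.06 to 6.87, from 65 and 670 UMIs) and *Nr4a2* 2.54-fold higher (1.76 to 3.77). These 2 of 10 genes were at least 2-fold higher, beside 9.1% of 10718 genes compared. *Fosb* was 1.64-fold higher (1.4 to 1.93) and *Nr4a3* lower, at a ratio of 0.574 (0.424 to 0.778). The median log2 ratio was -0.03 for the 10 genes and -0.12 for all genes. The ratio of the summed level was 1.03 (1.00 to 1.06), and without cells over 20000 UMIs it was 0.963. With the shallower barcode copies kept, 93 of 198 fibroblast-like cells of day 3 were such copies, which held 1.62% of the UMIs of that sum and left the summed level at 3187 CPM. In T cell-like cells 5 of 9 genes were at least 2-fold higher at day 3, beside 15% of 3954 genes, and the summed level was 1.81-fold higher (1.58 to 2.07). The largest of these were *Ier2* at 4.57-fold (2.54 to 9.05) and *Nr4a1* at 3.29-fold (1.85 to 6.37), while *Egr1* at 6.26-fold (2.02 to 31.4) started from 3 UMIs. *Jun* was lower there, at a ratio of 0.656 (0.466 to 0.931).

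Day 14 against day 0 gave larger ratios in both classes. In fibroblast-like cells 7 of 10 genes were at least 2-fold higher, beside 8.49% of 11632 genes, and the summed level was 2.57-fold higher (2.51 to 2.64). *Atf3* led with 8.69-fold (6.79 to 11.3), followed by *Nr4a2* at 3.75-fold (2.66 to 5.44) and *Fos* at 3.45-fold (3.26 to 3.65). *Nr4a3*, at a ratio of 0.937 (0.736 to 1.2), had an interval that included 1. In T cell-like cells 7 of 10 genes were at least 2-fold higher, beside 11.3% of 5082 genes, with a summed ratio of 3.76 (3.31 to 4.27). The day 0 T cell-like sum comes from 18 cells and 262 UMIs of the 10 genes, and 12 of these cells were in the cluster led by *Icos* and *Cd3g*. Clustered alone, the day 0 library gave no T cell-like cluster: its cluster with most T cell markers (23 cells) was led by T cell receptor genes together with *Hmgb2*, *Hist1h2ap* and *Top2a*, genes of dividing cells, whose part in these ratios was not tested.

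From day 3 to day 7 the classes did not move together. The summed level was 3.21-fold higher (2.78 to 3.73) in endothelial-like cells, 2.16-fold higher (2.13 to 2.20) in monocyte/macrophage-like cells, 1.97-fold higher in dendritic-like cells and 1.61-fold higher (1.58 to 1.64) in fibroblast-like cells. It differed by less in NK cell-like cells, at 1.10 (1.03 to 1.18), in T cell-like cells, at 1.04 (0.978 to 1.10), and in neutrophil-like cells, at 1.02 (0.995 to 1.06). In smooth muscle-like cells the ratio was 0.828 (0.806 to 0.850), and it was 1.14 as the mean over cells and 1.23 with libraries clustered separately. Only *Jun* of the 10 genes was higher in all 8 classes, beside 2.5% of 6717 genes, and 0 of 10 were lower in all of them, beside 2.95%. *Jun* was also the only gene higher in every class under each alternative processing tried for this count. In monocyte/macrophage-like cells 8 of 10 genes were at least 2-fold higher, beside 6.22% of 11085 genes.

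Single genes went opposite ways in this step. *Nr4a3* was 7.31-fold higher (5.47 to 9.98) at day 7 in monocyte/macrophage-like cells and at a ratio of 0.356 (0.272 to 0.465) in NK cell-like cells. *Egr1* was at a ratio of 0.373 (0.276 to 0.507) in NK cell-like cells and of 0.571 (0.518 to 0.630) in neutrophil-like cells, and at 1.91 (1.82 to 2.00) in fibroblast-like cells. In neutrophil-like cells *Nr4a2* was 8.85-fold higher at day 7 (6.21 to 12.9), the only one of the 10 genes at least 2-fold higher there. Of the 79 pairs of a gene and a class compared, 55 were higher and 24 lower at day 7. The interval lay above 1 for 50 and below 1 for 17, counts that stand without a share over all genes. Of all genes compared in this step, 39.6% were higher in monocyte/macrophage-like cells and 57.1% in fibroblast-like cells, the lowest and highest shares among the 8 classes.

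From day 7 to day 14 the summed level over all cells was higher in all 7 classes. The ratio was 1.55 (1.52 to 1.57) in fibroblast-like, 1.48 in smooth muscle-like, 4.34 in endothelial-like, 1.59 in monocyte/macrophage-like, 2.00 in dendritic-like, 2.00 in T cell-like and 1.59 in NK cell-like cells. The endothelial-like ratio was 2.34 with each cell's CPM averaged. Without cells over 20000 UMIs the smooth muscle-like sum was lower at day 14, at 9307 and 7606 CPM. The fibroblast-like sums then differed little, at 7005 and 7149 CPM. In this step 8 of 10 genes, all but *Ier2* and *Nr4a2*, were higher in every class in which they could be compared, beside 5.23% of 7708 genes. None of the 10 was lower in every class, beside 2.75%. A gene with under 3 UMIs in a sum was set at 3 UMIs, and that alone placed *Atf3* in NK cell-like cells among the higher pairs (26 UMIs at day 7 and 2 UMIs at day 14, ratio 0.755 with an interval of 0.0868 to 3.02). When pairs turned in this way were left out, the count was again 8 of 10, beside 4.73% of all genes higher and 4.72% lower in every class. Of 69 pairs compared, 66 were higher and 3 lower, beside shares of higher genes among all genes from 43.6% in smooth muscle-like to 67.5% in endothelial-like cells. The interval lay above 1 for 54 pairs and below 1 for 2. These interval counts stand without a share over all genes, so they describe the 10 genes only.

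The sizes of this step differed by gene. The median log2 ratio over classes was 1.00 for *Fos*, 0.95 for *Fosb*, 0.85 for *Junb*, 0.79 for *Nr4a1*, 0.77 for *Egr1*, 0.64 for *Atf3* and 0.60 for *Jun*, and it was 0.42 for *Ier2*, 0.40 for *Nr4a3* and 0.11 for *Nr4a2*. *Fos* was 2.00-fold higher (1.94 to 2.06) in fibroblast-like cells and 2.78-fold higher (2.49 to 3.10) in T cell-like cells. *Nr4a1* was 4.01-fold higher (3.44 to 4.66) in dendritic-like cells, whereas in monocyte/macrophage-like cells its ratio was 1.08 (0.993 to 1.17). *Nr4a2* was lower in monocyte/macrophage-like cells, at 0.462 (0.385 to 0.550), and in dendritic-like cells, at 0.620 (0.381 to 0.959). *Ier2* in fibroblast-like cells, at 0.992 (0.936 to 1.05), and *Egr1* in smooth muscle-like cells, at 1.03 (0.963 to 1.10), had intervals that included 1.

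The count of 8 did not hold without the deepest cells. Cells over 20000 UMIs held 94.4%, 88.4% and 65.1% of the fibroblast-like UMIs at days 3, 7 and 14 and 91.4%, 77.6% and 59.4% of the smooth muscle-like UMIs. Without them 2 of 10 genes, *Fos* and *Fosb*, were higher in every class from day 7 to day 14, beside 5.61% of 5848 genes. In smooth muscle-like cells 7 of 10 genes were then lower at day 14 and the summed level went from 9307 to 7606 CPM. In fibroblast-like cells 5 of 10 were lower and the sum went from 7005 to 7149 CPM. The leukocyte classes had few such cells to leave out, 71 of 925 monocyte/macrophage-like, 43 of 323 dendritic-like, 5 of 391 T cell-like and 0 of 135 NK cell-like cells at day 7, and 10 of 165, 2 of 30, 2 of 107 and 0 of 21 at day 14. Without them 9 of 10 genes were higher at day 14 in monocyte/macrophage-like and dendritic-like cells, all but *Nr4a2*, and 10 of 10 in T cell-like and NK cell-like cells, with *Atf3* in the latter again counted only through the minimum of 3 UMIs. These counts by class stand without a share over all genes in that setting. With all cells kept, 49.8%, 56.4%, 53.7% and 65.2% of genes compared were higher in these leukocyte classes, in the order named. The share was 43.6% in smooth muscle-like and 52.4% in fibroblast-like cells. The count over every class was 3 of 10 with each cell's CPM averaged (3.62% of genes) and 3 of 10 with libraries clustered separately (3.74%). With each ratio divided by the median over all genes it was 7 of 10 (3.91%), *Atf3* no longer being counted. It was 8 of 10 without endothelial-like cells (7.07% of genes) and with the shallower barcode copies kept.

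**Figure D2:**
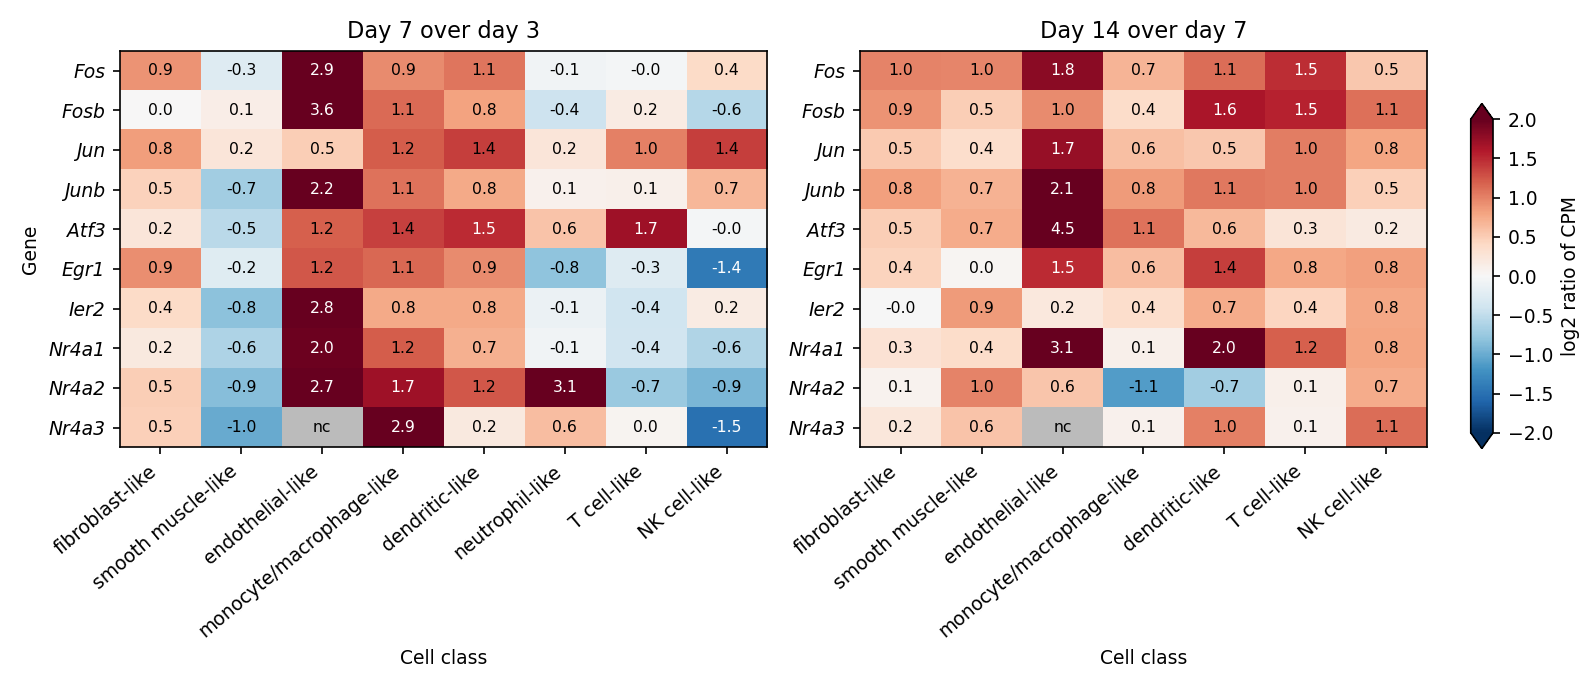
Log2 ratio of CPM for each gene (rows) in each class (columns), day 7 over day 3 and day 14 over day 7, with red for higher at the later day, nc for pairs not compared and sums under 3 UMIs set at 3. *Jun* is higher in every class in both panels, while *Nr4a2* in monocyte/macrophage-like cells has a ratio of 3.22 in the first panel and of 0.462 in the second.

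Classes were not made of the same clusters on every day, so the summed level was also compared within clusters. Fibroblast-like cells at day 3 were mainly in a cluster led by *Rbp4* and *Fmo2* (55 cells) and a cluster led by *Saa3* and *Prg4* (44 cells), and at day 14 in the first (172 cells) and a cluster led by *C1qtnf3* and *Angptl1* (259 cells). Monocyte/macrophage-like cells at day 14 were most often in the cluster led by *Ms4a7* and *C1qa* (107 cells), which held 47 of their 517 cells at day 3. From day 3 to day 7 the level was higher in 10 of 12 clusters, with ratios of 0.674 to 2.31. It was lower in the T cell-like cluster led by *Ccl5* and *Cd8b1* (0.674), beside 1.04 in the cluster led by *Icos* and *Cd3g*. The other lower cluster was the smooth muscle-like one led by *Myh11* and *Tagln* (0.976). The ratio was 1.49 in the *Rbp4* and *Fmo2* cluster and 1.03 in the *Saa3* and *Prg4* cluster, beside 1.61 for fibroblast-like cells together. In the 5 monocyte/macrophage-like clusters compared it was 1.47 to 1.93, each below the 2.16 of the class, and 1.93 in the *Ms4a7* and *C1qa* cluster. From day 7 to day 14 it was 1.18 to 1.73 in 3 clusters of that class, beside 1.59. From day 7 to day 14 it was higher in 10 of 10 clusters, with ratios of 1.06 to 2.55. The ratio from day 7 to day 14 was 1.58 in the *Rbp4* and *Fmo2* cluster and 1.06 in the *C1qtnf3* and *Angptl1* cluster.

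How far the classes of a library shared a level was described by splitting the variation of log2(CPM + 10) over 7 classes and days 3, 7 and 14 into parts that go with class, with day and with neither. The day took 67.6% of the sum of squares for *Jun*, and 0 of 3280 genes with a mean of at least 50 CPM had a larger day share. Without cells over 20000 UMIs its share was 56.6%, and 1 gene had a larger one. *Fos*, *Junb*, *Fosb*, *Nr4a1* and *Ier2* had day shares of 38.9%, 37.5%, 36.9%, 33.9% and 26.7%. Their class shares were 43.7%, 41.3%, 38.8%, 21.4% and 36.3%, above the day share for all but *Nr4a1*. The gap was wider for *Atf3* and *Egr1*, with 69.1% and 72.8% for class and 13.3% and 12.4% for day. So it was for *Nr4a3* (75.6% and 7.44%) and *Nr4a2* (60.6% and 6.09%). In all, 6 of 10 genes had a day share of at least 25%, beside 6.04% of all genes, and the median was 30.3% for the 10 genes and 3.84% for all genes. Without cells over 20000 UMIs 3 of 10 genes reached 25%, beside 3.47%, with a median of 20.4%.

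**Figure D3:**
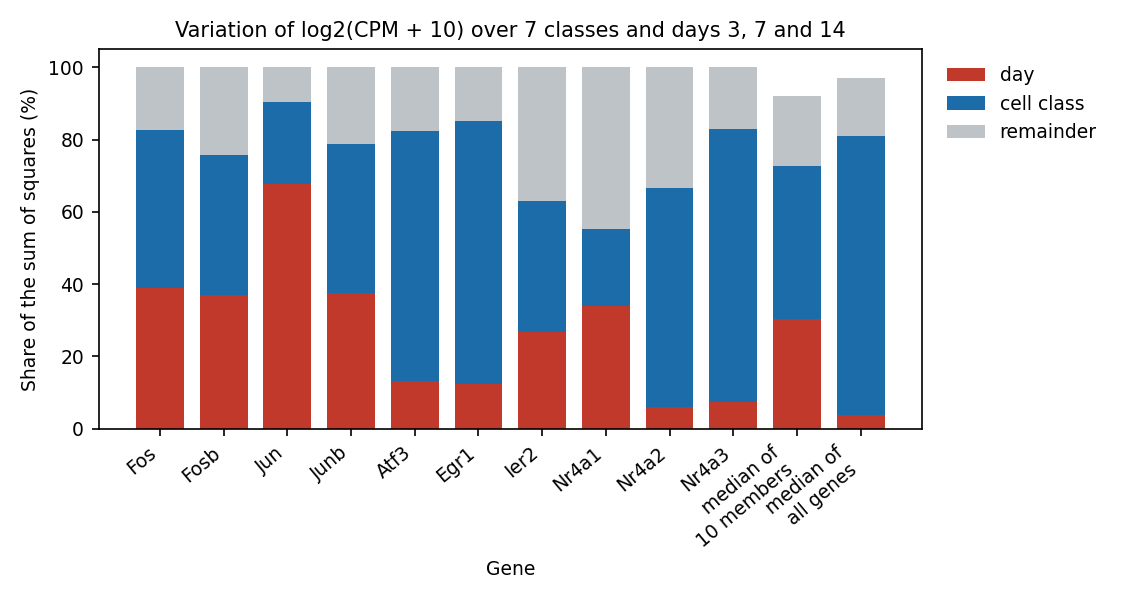
Share of the sum of squares of log2(CPM + 10) that goes with class, with day and with neither, for each gene over 7 classes and 3 days. The day part is largest for *Jun* (67.6%) and smallest for *Nr4a2* (6.09%).

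To see whether few or most cells carried the transcripts, each cell was thinned to 1000 UMIs and counted when it had UMIs of at least 5 of the 10 genes. Cells under 1000 UMIs were left out, which were 11 of 517, 21 of 925 and 15 of 165 monocyte/macrophage-like and 16 of 40, 19 of 57 and 11 of 18 endothelial-like cells at days 3, 7 and 14, and at most 12 cells of any other class in a library. In monocyte/macrophage-like cells the shares at days 3, 7 and 14 were 13.0%, 44.2% and 56.0%, with exact binomial 95% intervals of 10.2 to 16.3, 41.0 to 47.6 and 47.7 to 64.1. Unthinned, at median depths of 7415, 9110 and 8094 UMIs, it was 67.1%, 89.6% and 83.0%. Fibroblast-like cells had 7.5%, 12.6%, 24.1% and 29.1% at days 0, 3, 7 and 14, and T cell-like cells 0%, 1.54%, 8.01% and 22.5%. The 0 of 18 T cell-like cells at day 0 allows a share of up to 16.7% by a limit of 3 cells, or 18.5% by the exact interval. Smooth muscle-like cells stayed at 35.5%, 32.3% and 35.7% with overlapping intervals, and neutrophil-like cells at 68.9% and 66.4%. Dendritic-like cells went from 8.55% through 17.1% to 44.4%, the last over 27 of 30 cells. No class here is known to lack these genes, so no share of cells from free RNA could be set beside these values, and 0 of 24 endothelial-like cells at day 3 was the lowest injury value, which allows up to 12.5% by a limit of 3 cells, or 14.2% by the exact interval.

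**Figure D4:**
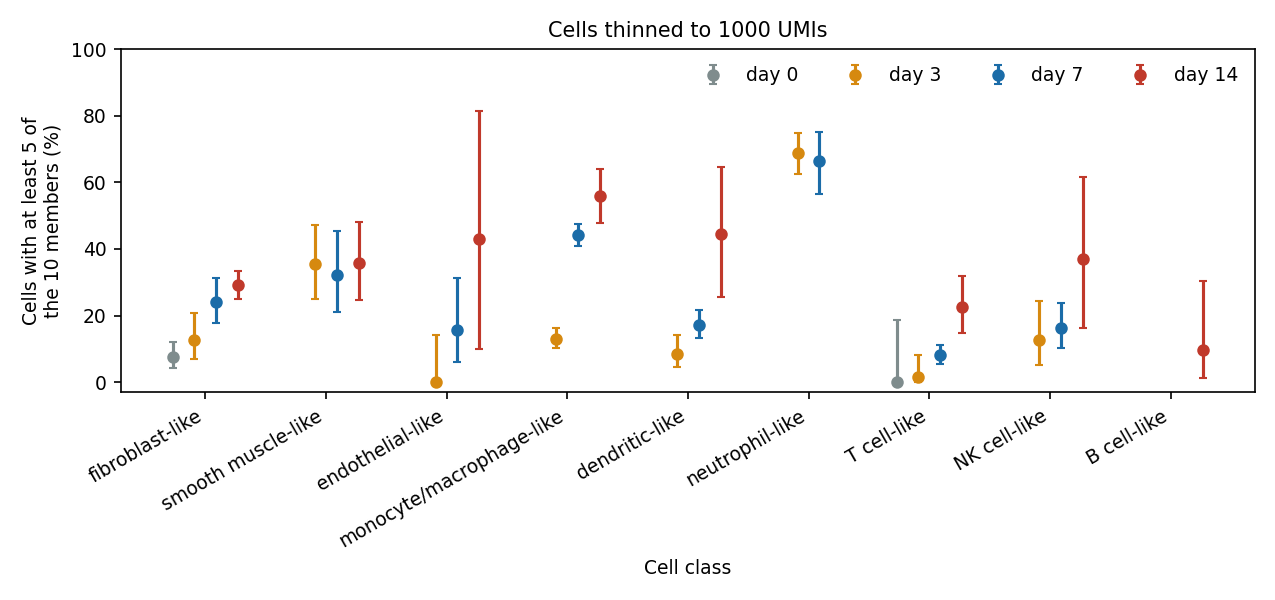
Percentage of cells with UMIs of at least 5 of the 10 genes after thinning to 1000 UMIs, by class and day, with exact binomial 95% intervals. Monocyte/macrophage-like cells go from 13.0% to 56.0%, and smooth muscle-like cells stay between 32.3% and 35.7%.

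Other genes of the early response were read from 3 lists: 17 other immediate early transcription factors, 14 feedback inhibitors, and 11 heat shock genes, which encode chaperones that heat and damaged protein induce. From day 7 to day 14, 4 of 16 other immediate early transcription factors compared were higher in every class (*Jund*, *Klf2*, *Klf4* and *Klf6*), beside the 5.23% given above. Among them *Jund*, another AP-1 subunit, had a median log2 ratio over classes of 0.76 and *Klf4*, a Krüppel-like factor, of 0.74. *Csrnp1* had a median of 0.59 and was higher in 5 of 7 classes. Of the feedback inhibitors, 3 of 14 were higher in every class. These were *Dusp1*, a phosphatase of MAP kinases, *Zfp36*, which promotes decay of AU-rich messenger RNA and had a median of 0.93, and *Ppp1r15a*. *Dusp2* and *Nfkbia* had medians of 0.98 over 5 classes and 0.84 over 7 classes but were not higher in all. Of the heat shock genes, 0 of 11 were higher in every class and 1, *Hspa8*, was lower in every class with a median of -0.82. *Hsph1* had a median of -0.70 and *Hspd1* of -0.43, these 3 being the medians of largest absolute size. Over the list 5 of 11 medians were above 0, up to 0.34 for *Hspb1*, and 6 were below.

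By class, the heat shock list had median log2 ratios from day 7 to day 14 of -0.55 in fibroblast-like, -0.46 in smooth muscle-like and -0.77 in endothelial-like cells, where the 10 genes had 0.47, 0.63 and 1.73. Without cells over 20000 UMIs the medians of the 10 genes were -0.036 in fibroblast-like and -0.29 in smooth muscle-like cells. With each cell's CPM averaged they were -0.12 in smooth muscle-like and 1.10 in endothelial-like cells. The other immediate early transcription factors had medians of -0.16 in fibroblast-like and -0.52 in smooth muscle-like cells. The feedback inhibitors had 0.23 and -0.47 there, and both lists had medians above 0 in the remaining classes. In monocyte/macrophage-like and T cell-like cells the heat shock medians were 0.21 and 0.24, beside 0.48 and 0.90 for the 10 genes. Neutrophil-like cells showed the opposite pairing from day 3 to day 7: all 10 heat shock genes compared were at least 2-fold higher, with a median of 1.67, beside 6.87% of 5068 genes, while the median of the 10 immediate early and NR4A genes was 0.00. The NK cell-like medians in this step were 0.76 for the heat shock list and -0.30 for the 10 genes. In each of the remaining classes both medians had the same sign. In the same step 2 of 14 feedback inhibitors (*Socs3* and *Tsc22d3*) and 1 of 11 heat shock genes (*Dnaja1*) were higher in every class. Of the other immediate early transcription factors 0 of 16 were, and over all genes the share was 2.5% of 6717.

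**Figure D5:**
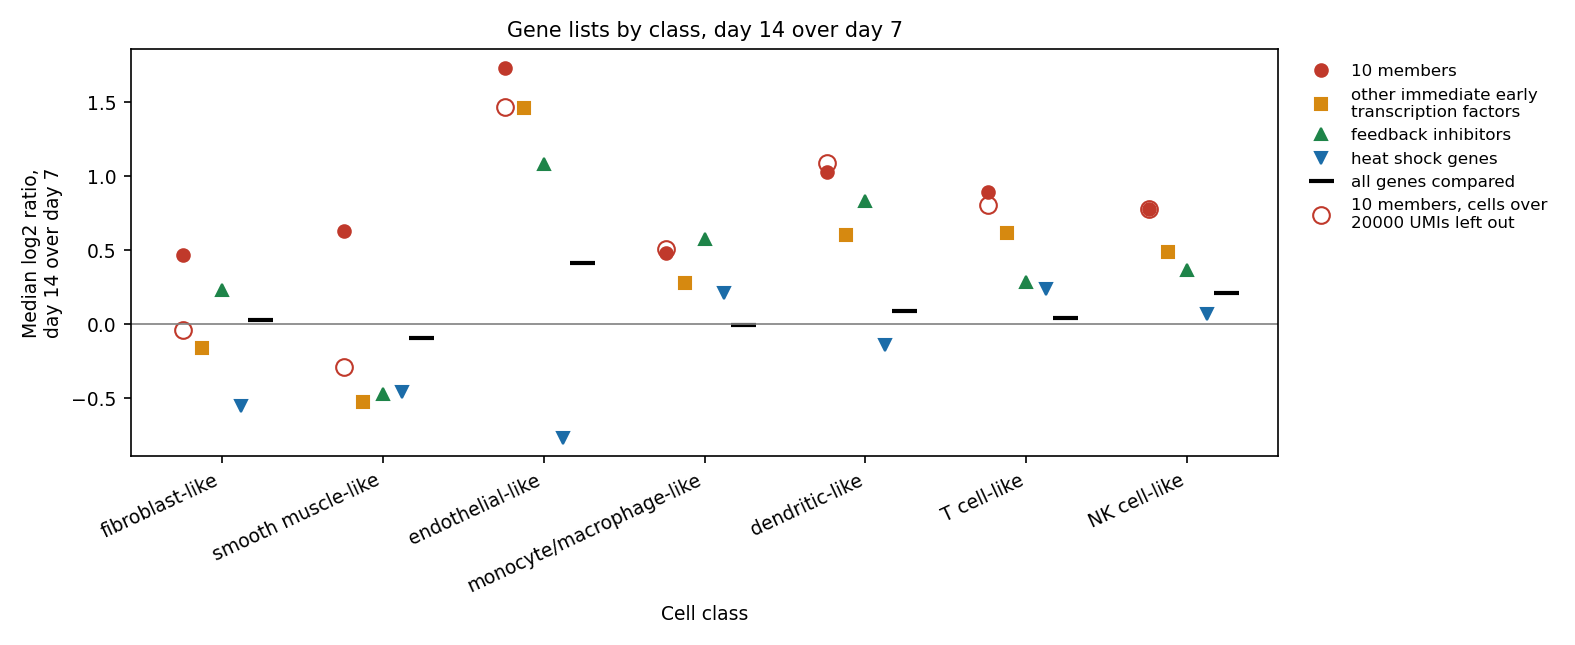
Median log2 ratio, day 14 over day 7, of each gene list and of all genes compared, by class. The immediate early and NR4A genes lie above 0 in each class shown when all cells are summed, and the heat shock list is at -0.55 in fibroblast-like cells and 0.24 in T cell-like cells.

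From day 0 to day 3 in fibroblast-like cells the genes of each list with the largest differences, in either direction, were as follows. *Nfkbiz*, an atypical IκB protein, was 8.16-fold higher (6.16 to 11.0, from 23.7 to 194 CPM), *Nfkbia*, the inhibitor of NF-κB, 2.94-fold higher (148 to 435 CPM), and *Tsc22d3*, a glucocorticoid-induced gene, was lower at a ratio of 0.204 (235 to 48.1 CPM). *Csrnp1* was 6.76-fold higher (3.15 to 17.3) from 7 UMIs. *Egr3*, with 1 UMI at day 0, had a ratio of 22.4 (3.81 to 904), or 7.46 with that sum taken as 3 UMIs, and *Fosl1*, with 0 UMIs at day 0, was at least 6.10-fold higher against a floor of 3 UMIs. Of the heat shock genes *Dnajb1* was 3.08-fold higher (84.9 to 262 CPM), *Hspb1* 1.51-fold higher, and *Dnaja1* lower at 0.649.

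Over the 26 sums genes most like the mean profile of the 7 AP-1, EGR and IER genes, among 3268 genes on no list, included *Sertad1* (Pearson r 0.824), *Map3k8* (0.80), *Sat1* (0.793) and *Fth1* (0.774). Those most like the mean of the NR4A genes were *Spty2d1* (0.846), *Ankhd1* (0.818), *Mat2a* (0.813), *Srsf5* (0.795) and *Coq10b* (0.794). Within the 10 genes the correlation was highest between *Fos* and *Fosb*, at 0.914. Its median was 0.647 over 21 pairs of AP-1, EGR and IER genes and 0.492 over 21 pairs of such a gene with an NR4A gene. These correlations are descriptions, since the sums of a day share a library and its depth and those of a class share its cell type.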

How the data were processed

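Droplet 3′ single-cell RNA sequencing of 4 libraries was analysed, 1 for each day. The deposited values are raw, whole-number UMI counts that the authors made with Cell Ranger (3.0.2 in the file headers); the mouse build was not given in usable form in the sources used here, and promoters are from GRCm38.p6. Barcodes under 200 genes or over 20% mitochondrial UMIs (453) and shallower copies of shared barcodes (214) were removed. Doublets were scored with Scrublet, whose own threshold marked 15, so the highest scores were removed at 0.8% per 1000 barcodes (106). Libraries were clustered together (scanpy 1.11.5, leidenalg 0.10.2, Python 3.11.15, scipy 1.17.1), without the genes of the lists, and clusters named from markers; names are resemblances.

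Counts were summed per class and library (at least 15 cells and 10000 UMIs) and scaled to CPM. A gene was compared where 2 sums held 20 UMIs together, a sum under 3 UMIs being taken as 3. This turned the direction of some pairs, so leaving such pairs out was added as an alternative once their values were seen. For a count over classes, a gene had to be compared in all but 2 of them at the least. Ratios carry exact conditional binomial 95% intervals. The computations were tested on simulated data. Levels are UMIs, 1 per captured transcript end, and were not divided by gene length.

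The members and lists were chosen with earlier results of these data known. Named beside the 10 genes are, from each list, the 3 with the largest absolute log2 ratio from day 0 to day 3 in fibroblast-like cells and the 3 with the largest absolute median from day 7 to day 14, those higher or lower in every class, and the 5 most like each group's profile, of which 1 is not reported here. Alternatives were the cell average, separate clustering, no doublet removal, a 10% mitochondrial limit, centring on all genes, leaving out cells over 20000 UMIs, other UMI minimums (50) and pseudocounts (1 or 10 CPM) and unthinned cells. Those chosen after seeing the data were keeping barcode copies, leaving out endothelial-like cells, leaving out turned pairs, separate clustering for the count over classes, and centring for the day shares.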

Additional observations from a re-analysis of the deposited data

Results flagged for a closer look

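*Egr1* went opposite ways from day 3 to day 7 in endothelial-like and NK cell-like cells, with log2 ratios of 1.24 and -1.42, a gap of 2.67. *Nr4a3* did so in monocyte/macrophage-like and NK cell-like cells, with log2 ratios of 2.87 and -1.49, a gap of 4.36. Each class and day is 1 library, so neither difference was tested.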

How the results depend on the processing

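No paired analysis was possible because each day is 1 library. Without cells over 20000 UMIs the summed ratio turned below 1 for fibroblast-like cells from day 0 to day 3 (0.963) and smooth muscle-like cells from day 7 to day 14 (0.817), the median log2 ratio of day 14 over day 7 turned to -0.036 in fibroblast-like and -0.29 in smooth muscle-like cells, the fibroblast-like sums had ratios of 2.34 (day 7 over 3), 1.02 (day 14 over 7) and 2.30 (day 14 over 0), and 2 genes were higher in every class from day 7 to day 14. With each cell's CPM averaged, smooth muscle-like day 7 over day 3 turned to 1.14 (median log2 0.17) and its day 14 over day 7 median to -0.12, the fibroblast-like ratios were 1.76 and 1.31, monocyte/macrophage-like 2.07 and 1.51, T cell-like 1.12 (day 7 over 3) and 5.15 (day 14 over 0), and the count over classes 3. With each library clustered on its own, smooth muscle-like day 7 over day 3 turned to 1.23 (median log2 0.13), fibroblast-like ratios were 1.58, 1.60 and 3.00 (day 14 over 0), monocyte/macrophage-like 1.55 and T cell-like 1.78 (both day 14 over 7), and the count 3; T cell-like day 14 over day 0 could not be computed. Centring on all genes gave fibroblast-like 1.53 and 1.52 and monocyte/macrophage-like 2.34 (day 7 over 3). Keeping barcode copies gave fibroblast-like 1.66 and monocyte/macrophage-like 2.30 (day 7 over 3). A 10% mitochondrial limit gave fibroblast-like 1.58 and no doublet removal T cell-like 1.82 (both day 14 over 7). Monocyte/macrophage-like cells with at least 5 genes were 67.1%, 89.6% and 83.0% unthinned. The causes were not tested. Leaving out pairs turned by the minimum of 3 UMIs moved none of 21 medians beyond its interval and neither count over classes. The median day share was 20.4% to 31.4% under 6 alternatives, beside 30.3%. Depth limits values that rest on few UMIs, such as those of endothelial-like cells at day 14 (47852 UMIs) and T cell-like cells at day 0 (142917 UMIs).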
